A study of Homo sapiens with 11 samples.

Results

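The human keratin genes were examined in total RNA of HCT116, an established colorectal cancer cell line. Members were all genes of the table whose symbol is KRT, digits and at most 1 letter. Of 66 such symbols, 11 ending in P, which marks pseudogenes, were left out. This left 55 protein-coding keratins of 58699 genes, 29 of type I and 26 of type II. By the tissue each is known for, 5 are keratins of simple epithelia, 18 of stratified epithelia, 17 of the hair shaft, 9 of the inner root sheath and companion layer of the hair follicle, and 6 are others. All cells carried an siRNA. In control cells (siLuc) it targets luciferase, a gene human cells lack, and in knockdown cells (siStau1) it targets STAU1, the gene of the RNA-binding protein Staufen1. Both kinds were given DMSO, the solvent, or 500 nM decitabine (DAC), a cytosine analogue that blocks the upkeep of DNA methylation, with a time label of 5 days for DAC. The 4 groups had 2 libraries each, and the authors' table gives 1 FPKM value per group (read fragments scaled to transcript length and library size). No value per library is given, so the spread between replicates is unknown and no test of the levels was made here. Calls are the authors' own, at a q-value under 0.05 in their deposited Cuffdiff table. Members were chosen by symbol, but the family was selected on these FPKM values, which were known, so its levels and calls are a description and support nothing further. Where 4 values are listed, they are in the order control DMSO, control DAC, knockdown DMSO, knockdown DAC.

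Keratins are intermediate filament proteins of epithelial cells. A filament is built from pairs of 1 acidic type I and 1 basic type II chain, so cells make members of both types together. Simple epithelia such as that of the colon use KRT8 with KRT18, KRT19 and KRT20. Basal cells of stratified epithelia use KRT5 with KRT14, their upper layers use KRT1 with KRT10 or KRT4 with KRT13, and activated or wounded epidermis uses KRT6 with KRT16 and KRT17. Hair keratins are cysteine-rich and build the hard fibre.

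The knockdown and the cell type were checked first. STAU1 had 35.5, 33.7, 30.0 and 27.1 FPKM in the 4 groups. In the authors' deposited table its knockdown q-values were 0.767 with DMSO and 0.685 with DAC, so its mRNA was lower in the groups labelled as knockdown without being called. Of 12 colon epithelium markers, 7 were at 1 FPKM or more in each group, among them EPCAM and CDH1, while VIL1, LGR5, GPA33 and CDH17 were at or below 0.198 FPKM throughout. With DAC, EPCAM was called lower in siLuc, with 259, 117, 338 and 179 FPKM, and CDX1, at 0 without DAC and 0.947 and 0.791 FPKM with it, was called higher in both arms. The summed level of 6 fibroblast markers was 1.77, 10.5, 1.21 and 6.74 FPKM. In the same order, 4 leukocyte markers summed to 1.53, 19.2, 0.662 and 9.03 FPKM, and 3 endothelium markers to 0.139, 1.38, 0.0666 and 1.57 FPKM. CD68 held 17.1 and 6.60 FPKM of the leukocyte sums with DAC, and COL1A1 8.60 and 5.65 FPKM of the fibroblast sums. These sums were higher in both DAC groups, as were most keratins below, and their part in the results was not tested. LUM, COL1A2, PTPRC and CDH5 were among the markers listed at 0 in both DMSO groups. Of the fibroblast, leukocyte and endothelium markers, the authors' deposited table called PECAM1 higher with DAC in siLuc. In siStau1 it called COL1A1, PTPRC and VWF higher, and it called 0 lower in either arm. PECAM1, PTPRC and VWF stayed under 1 FPKM in all groups. In bulk RNA, more cells with a transcript and more transcript per cell cannot be told apart.

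Simple epithelial keratins made up nearly all keratin mRNA in every group. KRT8, KRT18 and KRT19 together held 94.7%, 94.2%, 92.8% and 94.7% of the summed keratin FPKM. By level, KRT8 was rank 93, KRT18 rank 148 and KRT19 rank 181 of 19940 protein-coding genes in siLuc DMSO. In siLuc DAC the ranks were 14, 9 and 69. These 3 are among the 5 members classed as keratins of simple epithelia.

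With these 3 counted, 24 keratins reached 1 FPKM in some group or were called, and these are given by name. The other 31 stayed under 1 FPKM, with 0.701 FPKM as their highest value, and 5 of them were listed at 0 in all 4 groups. Members at 1 FPKM or more numbered 12, 22, 9 and 19. All 5 simple keratins passed 1 FPKM in every group. Of the 18 stratified keratins, 4, 10, 2 and 8 did so in that order, and of the 17 hair shaft keratins 0, 5, 0 and 4. None of the 9 inner root sheath and companion layer keratins reached it in any group, and their highest value was 0.287 FPKM, of KRT27 in siStau1 DAC. The median level was 537 FPKM for simple, 0.0420 for stratified and 0.0304 for hair shaft keratins in control DMSO. In control DAC the medians were 1419, 1.21 and 0.376 FPKM. The order of these 3 classes was the same in both groups and was not tested, since genes are not replicates.

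**Figure D1:**
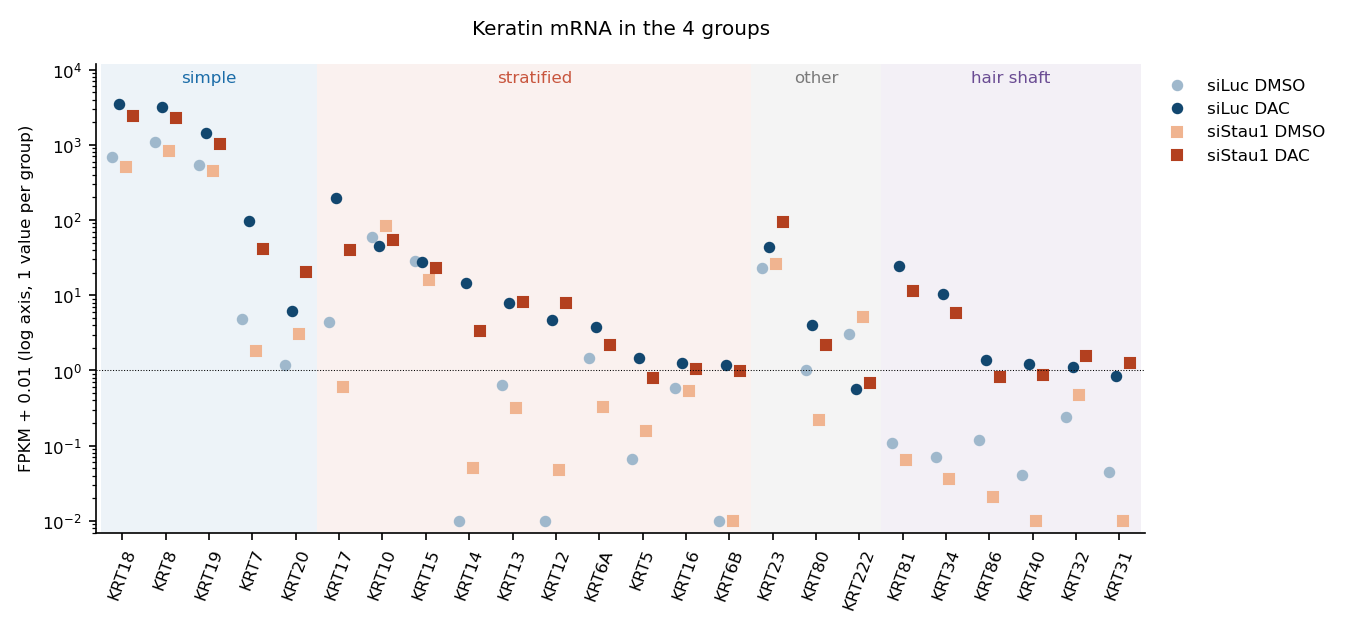
FPKM plus 0.01 on a log axis for the 24 named keratins, by class, with 1 point per group of 2 libraries and a dotted line at 1 FPKM. KRT8, KRT18 and KRT19 lie above the other keratins in each group, while the hair shaft keratins lie below 1 FPKM in both DMSO groups.

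The effect of DAC in control cells was addressed by siLuc DAC against siLuc DMSO. The authors' deposited table called 9 of the 55 keratins, all higher with DAC, where 13.5% of all 17504 tested genes were called, 8.71% higher and 4.78% lower. At an unadjusted Cuffdiff p-value under 0.05 there were 13 higher and 0 lower, beside 17.6% higher and 11.3% lower of all tested genes. The 9 were KRT7, KRT19 and KRT20 of simple epithelia, KRT6B, KRT12, KRT13, KRT14 and KRT17 of stratified epithelia, and KRT80. Only 26 keratins were tested. A gene silent with DMSO is tested only if DAC brings it up, so the share of tested members is no support for a rise of the family. In siStau1 cells the table called 12 keratins, again all higher with DAC, where 7.46% of 16979 tested genes were called, 4.56% higher and 2.89% lower. At an unadjusted p-value under 0.05 there were 14 higher and 0 lower, beside 10.4% and 8.63% of all tested genes. The 12 called were KRT7, KRT18, KRT19 and KRT20, KRT6B, KRT12, KRT13 and KRT17, KRT31 and KRT40 of the hair shaft, and KRT23 and KRT80. Of all 55 members, regardless of calls, 43 had a higher FPKM with DAC in siLuc, 4 a lower one and 8 the same. In siStau1 the numbers were 38, 7 and 10. Over all 58699 genes, tested or not, they were 18896, 11413 and 28390 in siLuc, and 18384, 12338 and 27977 in siStau1. The median log2 ratio of the 55, with 0.1 FPKM added to each value, was 1.09 in siLuc and 0.96 in siStau1, beside 0.23 and 0.11 over all tested genes. The 55 include untested members.

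Among simple keratins, KRT7 changed most. KRT7 (ENSG00000135480.15, chromosome 12, 52232520 to 52252186, GRCh38), a type II keratin of ducts and glands, went from 4.77 to 96.8 FPKM with DAC in control cells and from 1.82 to 41.2 FPKM in knockdown cells. Both DAC groups lay far above both DMSO groups, by 20.3-fold in siLuc and 22.6-fold in siStau1. Its q-value in the authors' deposited table was 0.00162 in both arms, the smallest value that table holds. Of its 50-base stretches, 10.8% also occur in other genes, mostly the antisense gene KRT7-AS, and the strand setting is not given. KRT7 also overlaps the hair shaft keratin KRT86 by 2887 bases on the same strand. KRT20, the keratin of mature intestinal lining cells (ENSG00000171431.3, chromosome 17, 40875941 to 40885227), had 1.16, 6.24, 3.09 and 20.2 FPKM in the 4 groups. It rose 5.39-fold with DAC in siLuc and 6.56-fold in siStau1, with q-values of 0.00415 and 0.00162 in the authors' deposited table.

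The abundant simple keratins had smaller ratios. KRT19, the smallest keratin and a type I chain, had 537, 1419, 449 and 1041 FPKM. It rose 2.64-fold in siLuc and 2.32-fold in siStau1, with q-values of 0.00162 and 0.0165 in the authors' deposited table. KRT18 had 681, 3469, 509 and 2415 FPKM. Its ratios were 5.10 and 4.74, yet the authors' deposited table called it in siStau1 alone, with q-values of 0.0773 in siLuc and 0.0348 in siStau1. KRT8, its type II partner, had 1103, 3159, 834 and 2268 FPKM and was called in neither arm, with q-values of 0.196 and 0.353 in the authors' deposited table. KRT8 and KRT18 overlap by 1084 bases on opposite strands of chromosome 12. Of all 50-base stretches of their longest transcripts, 22.1% and 33.4% also occur in transcripts of other genes, including each other and their many pseudogenes, so both values are uncertain. The 50 KRT8 pseudogene copies summed to 40.2, 105, 33.2 and 74.5 FPKM, and the 68 KRT18 copies to 11.2, 39.3, 10.1 and 30.6 FPKM. Copies and parents were thus both higher with DAC. Of the 5 simple keratins, all 5 had a higher value with DAC in each arm, and 3 were called in siLuc and 4 in siStau1.

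Of the called stratified keratins that were above 0 in control DMSO, KRT17 had the largest ratio with DAC and KRT13 the next. KRT17 (ENSG00000128422.16, chromosome 17, 41619441 to 41624842), a type I keratin of skin appendages and wounded epidermis, went from 4.37 to 198 FPKM with DAC in control cells, and from 0.585 to 40.3 FPKM in knockdown cells. DAC raised it 45.3-fold in siLuc and 68.9-fold in siStau1, with a q-value of 0.00162 in both in the authors' deposited table. Its rank among protein-coding genes went from 8727 to 427 in siLuc. KRT14 (ENSG00000186847.5, chromosome 17, 41582279 to 41586921), the type I keratin of basal cells, was listed at 0 in control DMSO and had 14.4, 0.0411 and 3.32 FPKM in the other groups. The authors' deposited table called it in siLuc (q-value 0.00162) and not in siStau1 (0.604). KRT5, its basal partner, had 0.0568, 1.48, 0.148 and 0.786 FPKM and was not called. Of the 50-base stretches of KRT14, 23.8% also occur in other genes, KRT16 first among them, against 11.7% for KRT17. The KRT14 values are therefore uncertain.

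KRT13, a type I keratin of moist mucosa such as the oesophagus, had 0.629, 7.94, 0.311 and 8.21 FPKM. It rose 12.6-fold in siLuc and 26.4-fold in siStau1, with a q-value of 0.00162 in both in the authors' deposited table. KRT12, the type I keratin of the cornea, was listed at 0 in siLuc DMSO and had 4.64, 0.0378 and 7.94 FPKM in the other groups in that order. It was called in both arms of the authors' deposited table, with q-values of 0.00162 and 0.0464. Neither KRT4 nor KRT3, the type II partners of KRT13 and KRT12, reached 1 FPKM in any group. KRT6B, found in activated epidermis, was at 0 without DAC, reached 1.17 FPKM with it in control cells and 0.970 FPKM in knockdown cells, and was called in both arms. Its near copy KRT6A had 1.46, 3.78, 0.315 and 2.19 FPKM and was not called. Of the 50-base stretches of KRT6B, 47.1% also occur in other genes, mostly KRT6C, so these values are uncertain.

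The stratified keratins did not move as one. KRT10, of the upper epidermis, was the most abundant of them with DMSO and had 59.8, 45.0, 83.1 and 53.5 FPKM. KRT15, of basal cells, had 28.8, 27.9, 16.2 and 23.1 FPKM, and KRT16, a usual companion of KRT17, had 0.573, 1.24, 0.526 and 1.02 FPKM. None of these 3 was called in any comparison. Of the 18 stratified keratins, 5 were called higher in siLuc and 4 in siStau1, and 0 lower, and at an unadjusted Cuffdiff p-value under 0.05 there were 5 in each and 0 lower.

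Hair shaft keratins were near 0 with DMSO. KRT81, a type II keratin of the hair cortex, had 0.0971, 24.3, 0.0548 and 11.4 FPKM. KRT34, a type I cortex keratin, had 0.0617, 10.3, 0.0259 and 5.76 FPKM. With DAC both were far above their DMSO values, by ratios of 250 and 167 in siLuc that start from under 0.1 FPKM. Neither was called. The q-values of KRT81 in the authors' deposited table were 0.517 and 0.447, and those of KRT34 0.464 and 0.533. In siStau1, 2 hair shaft keratins were called higher, each listed at 0 in knockdown DMSO. They were KRT31, with 0.0342, 0.826, 0 and 1.26 FPKM, and KRT40, with 0.0304, 1.20, 0 and 0.872 FPKM. In siLuc, where both were just above 0 with DMSO, neither was called, and the unadjusted p-value was under 0.05 for 1 hair shaft keratin, KRT32. KRT86 had 0.107, 1.36, 0.0107 and 0.813 FPKM, and KRT32 had 0.231, 1.09, 0.457 and 1.56 FPKM, without a call. KRT81 lies inside KRT86 on the other strand and shares 44.6% of its 50-base stretches with other genes, mostly KRT86, so both values are uncertain. KRT86 also overlaps KRT7, by 2887 bases on the same strand.

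Calls of nearly silent genes differed with the listed starting value. Of all tested genes with at least 1 FPKM in siLuc DAC, the authors' deposited table called 62.3% of 427 listed at 0 in siLuc DMSO. It called 11.8% of 245 that were above 0 and under 0.1 FPKM there. Keratins of the first kind were KRT6B, KRT12 and KRT14, all 3 called, and of the second KRT5, KRT34, KRT40 and KRT81, with 0 of 4 called. In siStau1 the shares were 60.9% of 289 and 11.7% of 205 genes. Of keratins there, KRT31 was of the first kind and called, and of 4 of the second kind 1 was called, KRT12. A missing call for KRT81 or KRT34 therefore does not show that these were unchanged. Likewise, KRT14, KRT31 and KRT40 were called only in the arm where they were listed at 0 with DMSO. Their calls therefore do not show that the arms differed.

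Of the other keratins, KRT23 and KRT80 rose and KRT222 had lower values with DAC. KRT23, a type I keratin, had 22.9, 43.8, 26.1 and 93.4 FPKM. It rose 3.58-fold in siStau1, while its q-value in siLuc was 0.0866 in the authors' deposited table. KRT80, a type II keratin found in many epithelia, had 1.01, 3.99, 0.211 and 2.16 FPKM and rose 3.95-fold in siLuc and 10.3-fold in siStau1. Antisense or opposite-strand genes overlap all of KRT23 and KRT80. KRT222, which shares 38.4% of its 50-base stretches with a gene model that overlaps it, had 3.02, 0.555, 5.07 and 0.680 FPKM and was not called. It was the 1 keratin at least 2-fold lower with DAC. At least 2-fold higher were 18 in siLuc and 16 in siStau1, where 25.7% and 18.2% of all genes at 1 FPKM or more in one group were so. In either direction, 42.7% and 32.4% of those genes passed 2-fold, 17.1% and 14.2% lower. Members silent with DMSO pass the 1 FPKM filter through DAC alone, so these counts support nothing.

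**Figure D2:**
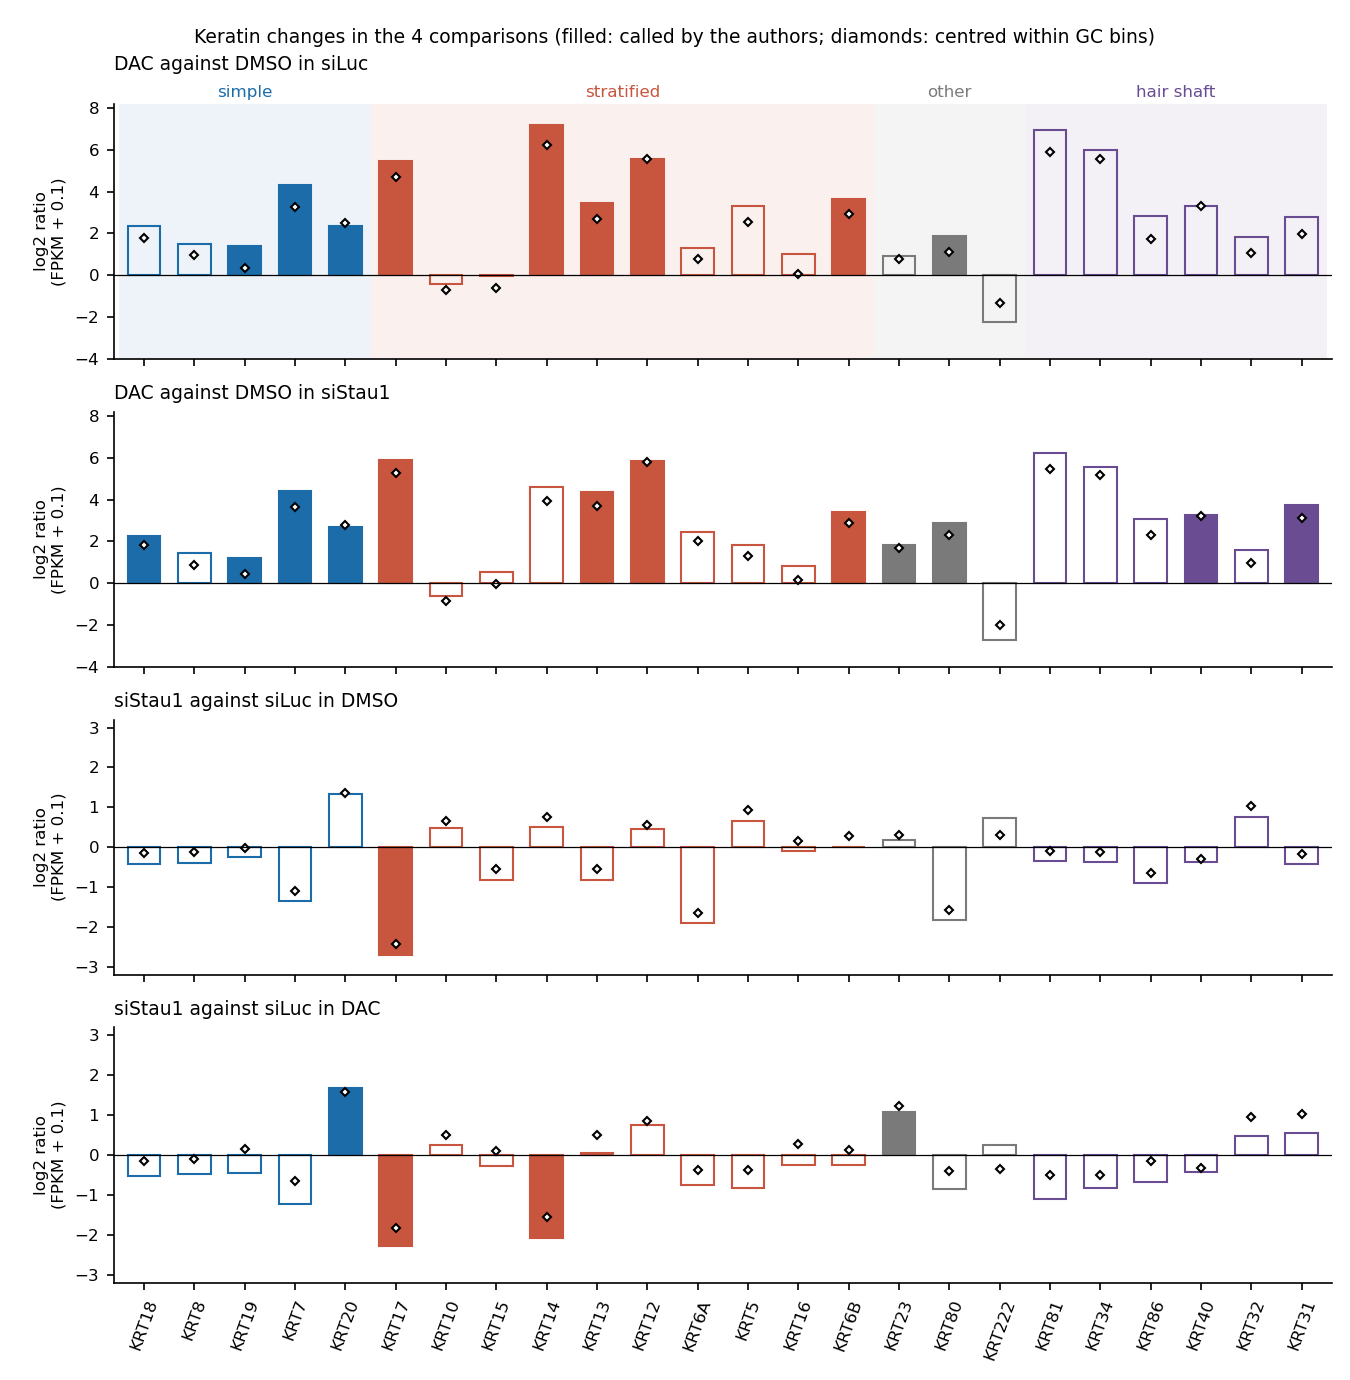
Log2 ratios of FPKM plus 0.1 for the 24 named keratins in 4 comparisons, with bars filled where the authors' table called the gene and diamonds for the ratio centred within GC bins. Filled bars point up in both DAC comparisons, and in the knockdown with DAC they point down for KRT14 and KRT17 and up for KRT20 and KRT23.

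The ratios moved with GC content across the transcriptome. Over 10953 protein-coding genes expressed at 1 FPKM or above with and without DAC, Spearman's rho between log2 ratio and transcript GC content was 0.659 for DAC in siLuc, as a description across genes that share the same libraries. It was 0.624 for DAC in siStau1, and of opposite sign for the knockdown, at −0.487 with DMSO and −0.715 with DAC. Keratin transcripts were GC-rich, with a median of 56.5% against 49.1% for protein-coding genes, and the named ones ran from 34.2% for KRT222 to 62.9% for KRT7. Centring each gene on the median of its GC bin moved the ratio of KRT19 in siLuc from 1.40 to 0.33 and that of KRT8 from 1.52 to 0.97. KRT7 moved from 4.31 to 3.24 and KRT17 from 5.47 to 4.68, while KRT20, of 45.7% GC, went from 2.33 to 2.48. Of the keratins given here, KRT7 and KRT17 thus stayed above a log2 ratio of 3 in siLuc with centring, while KRT8 and KRT19 came to under 1.

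**Figure D3:**
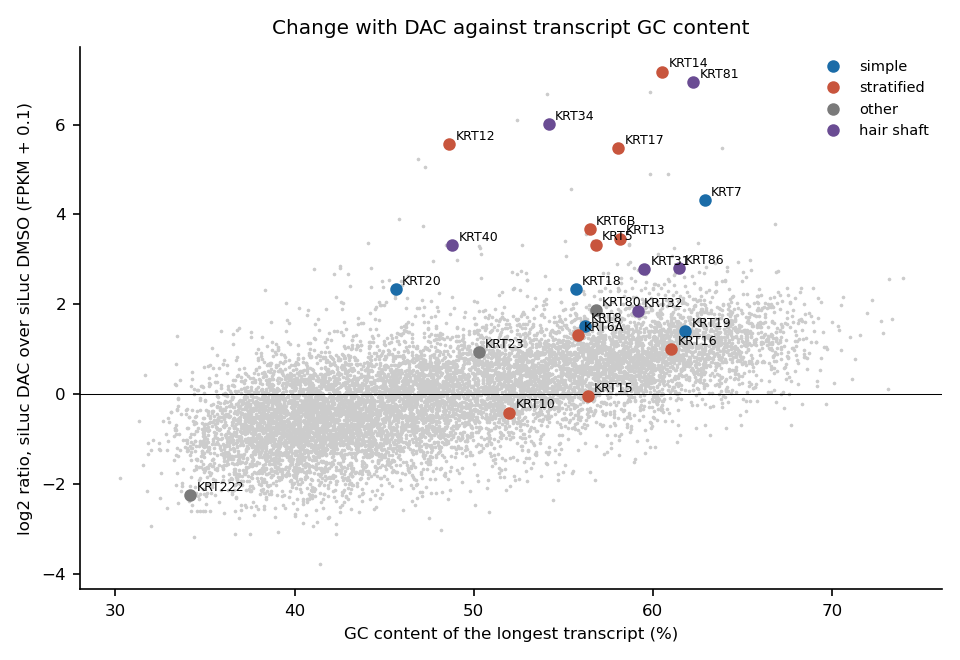
Log2 ratio of siLuc DAC over siLuc DMSO (FPKM plus 0.1) against GC content of the longest transcript, with the named keratins coloured by class over grey protein-coding genes at 1 FPKM or more in all 4 groups. KRT81 lies at 6.95 and KRT222, of 34.2% GC, lies at the lower left.

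Promoter sequences are shown because DAC acts on the methylation of cytosine, which in human DNA lies mostly in CG pairs. The RefSeq table, on GRCh38.p14, held 34 of the 55 keratins and 4 of the 13 called in any comparison, too few to describe a class. Each sequence runs 5′ to 3′ on the minus strand of chromosome 17, from 250 bases before the RefSeq start to 50 after it, with CG pairs in capitals. The 4 are KRT20 (chr17:40885193-40885492), KRT12 (chr17:40867174-40867473), KRT31 (chr17:41397559-41397858) and KRT40 (chr17:40986952-40987251).
KRT20: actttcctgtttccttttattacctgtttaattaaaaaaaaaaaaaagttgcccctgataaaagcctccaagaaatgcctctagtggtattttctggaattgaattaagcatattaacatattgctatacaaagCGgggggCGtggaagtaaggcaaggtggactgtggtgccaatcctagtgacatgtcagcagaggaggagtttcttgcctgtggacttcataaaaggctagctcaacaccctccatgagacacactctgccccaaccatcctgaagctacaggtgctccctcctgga
KRT12: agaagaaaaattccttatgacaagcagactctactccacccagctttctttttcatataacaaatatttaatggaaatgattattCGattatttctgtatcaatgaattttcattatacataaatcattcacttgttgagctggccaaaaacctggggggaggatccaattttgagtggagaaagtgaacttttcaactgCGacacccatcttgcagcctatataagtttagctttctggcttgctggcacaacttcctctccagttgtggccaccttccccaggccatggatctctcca
KRT31: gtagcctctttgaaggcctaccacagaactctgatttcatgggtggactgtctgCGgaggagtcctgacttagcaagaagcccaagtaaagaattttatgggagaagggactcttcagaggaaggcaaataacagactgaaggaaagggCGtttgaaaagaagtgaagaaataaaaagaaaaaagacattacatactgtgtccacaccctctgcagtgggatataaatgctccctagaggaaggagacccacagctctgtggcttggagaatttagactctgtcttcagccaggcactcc
KRT40: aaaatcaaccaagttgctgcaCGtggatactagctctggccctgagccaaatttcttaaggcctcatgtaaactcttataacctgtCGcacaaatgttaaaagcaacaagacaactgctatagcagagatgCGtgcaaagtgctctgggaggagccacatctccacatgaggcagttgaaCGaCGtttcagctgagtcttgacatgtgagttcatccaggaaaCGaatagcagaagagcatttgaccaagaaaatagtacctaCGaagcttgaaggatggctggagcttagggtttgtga
KRT20, KRT12 and KRT31 each held 2 CG pairs and KRT40 held 7. The median over 35116 RefSeq promoters of that length was 14, and 11.0% of them held fewer than 2 pairs. All 4 keratins had higher FPKM in both DAC groups than in either DMSO group. The same windows were searched on both strands for TATAAA, for the AP-1 motif, for the GAS motif and for the core of the interferon-stimulated response element, which 11.5%, 7.71%, 7.66% and 3.57% of all promoters hold. TATAAA was found 1 time in KRT31 and the interferon element core 1 time in KRT12. The other searches found no match in these 4 windows, which says nothing of the factors.

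The effect of the knockdown alone was read from the DMSO groups. The authors' deposited table called 1 keratin, KRT17, where 0.799% of 15893 tested genes were called, 0.333% higher and 0.466% lower. KRT17 fell from 4.37 to 0.585 FPKM, to 0.134 of its level, with a q-value of 0.0187 in that table. No keratin was called when the Cuffdiff p-values were adjusted within this comparison alone. Of 14 tested keratins, 4 (28.6%) had an unadjusted Cuffdiff p-value under 0.05, beside 4.3% of all tested genes. Besides KRT17, 3 keratins were at least 2-fold lower without a call. KRT7 had 4.77 FPKM in siLuc and 1.82 in siStau1, KRT80 had 1.01 and 0.211, and KRT6A had 1.46 and 0.315. KRT20, with 1.16 and 3.09 FPKM, was at least 2-fold higher without a call. Of all genes at 1 FPKM or more in one group, 13% passed 2-fold, 6.41% higher and 6.59% lower. The abundant KRT8, KRT18 and KRT19 had log2 ratios of −0.40, −0.42 and −0.26, and of −0.13, −0.16 and −0.01 after GC centring.

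The effect of the knockdown under DAC was read from the DAC groups. The authors' deposited table called 4 keratins, where 0.904% of 17263 tested genes were called, 0.434% higher and 0.469% lower. In that deposited table KRT17 fell from 198 to 40.3 FPKM (q-value 0.00162) and KRT14 from 14.4 to 3.32 FPKM (0.0142). KRT15, with 27.9 and 23.1 FPKM, and KRT16, with 1.24 and 1.02 FPKM, also basal or activated epidermal keratins, were not called. KRT20 rose from 6.24 to 20.2 FPKM (0.00162) and KRT23 from 43.8 to 93.4 FPKM (0.0149). All 4 called keratins are of type I. The direction of these 4 was the same after GC centring, with log2 ratios of −1.84, −1.56, 1.59 and 1.24 for KRT17, KRT14, KRT20 and KRT23. KRT17 and KRT14 have 58.1% and 60.5% GC, and KRT20 45.7%. None of the 4 calls held when Cuffdiff p-values were adjusted within this comparison alone. Of 26 tested keratins, 5 (19.2%) had an unadjusted Cuffdiff p-value under 0.05, beside 6.95% of all tested genes. KRT7 had 96.8 FPKM in control and 41.2 in knockdown cells, and its q-value was 0.0558 in the authors' deposited table. KRT81 had 24.3 and 11.4 FPKM, also without a call. Of all genes at 1 FPKM or more in one group, 11.5% passed 2-fold, 4.72% higher and 6.81% lower, and of the keratins KRT20 and KRT23 were higher and KRT7, KRT14, KRT17 and KRT81 lower. After GC centring KRT7 went from −1.23 to −0.64 and KRT81 from −1.09 to −0.50, so neither passed 2-fold, while KRT31 came to 1.02.

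Each group serves in 2 of the 4 comparisons, so they share samples and their values are only set side by side. KRT17 was lower in siStau1 than in siLuc with either treatment, with log2 ratios of −2.71 and −2.29. KRT20 was higher with either, with log2 ratios of 1.34 and 1.68. The DAC ratio of KRT17 was 5.47 in siLuc and 5.88 in siStau1, and that of KRT7 was 4.31 and 4.43. For KRT13 it was 3.46 and 4.34, and for KRT18 2.35 and 2.24. KRT14 started from 0 in control DMSO, so no ratio is given for it. No test of one arm against the other was made, as values per library are missing.

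The balance of both chain types was read from summed FPKM, which is per length. Type I keratins summed to 1340, 5254, 1094 and 3719 FPKM, and type II keratins to 1110, 3294, 836 and 2328 FPKM. Type I over type II was therefore 1.21, 1.60, 1.31 and 1.60. KRT18 over KRT8, which form the main pair, was 0.617, 1.10, 0.611 and 1.06. Both DMSO groups thus held less KRT18 than KRT8, and both DAC groups held more, with the read sharing between the pair and their pseudogenes given above.

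Along the chromosomes, the active keratins were unevenly spread. All 27 members on chromosome 12 lay between 52168996 and 52952901 and all 28 on chromosome 17 between 40654665 and 41624842. On chromosome 12, KRT8 and KRT18 are neighbours at one end and KRT7 and KRT80 lie at the other. Between them, the 12 consecutive members from KRT71 to KRT78 stayed under 1 FPKM in all 4 groups. Members at 1 FPKM or more on chromosome 12 numbered 5, 9, 3 and 6. On chromosome 17 they numbered 7, 13, 6 and 13. Neighbours there differed: KRT13 was 12.6-fold higher with DAC in siLuc, while the adjacent KRT15 was at 0.968 of its DMSO level.

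**Figure D4:**
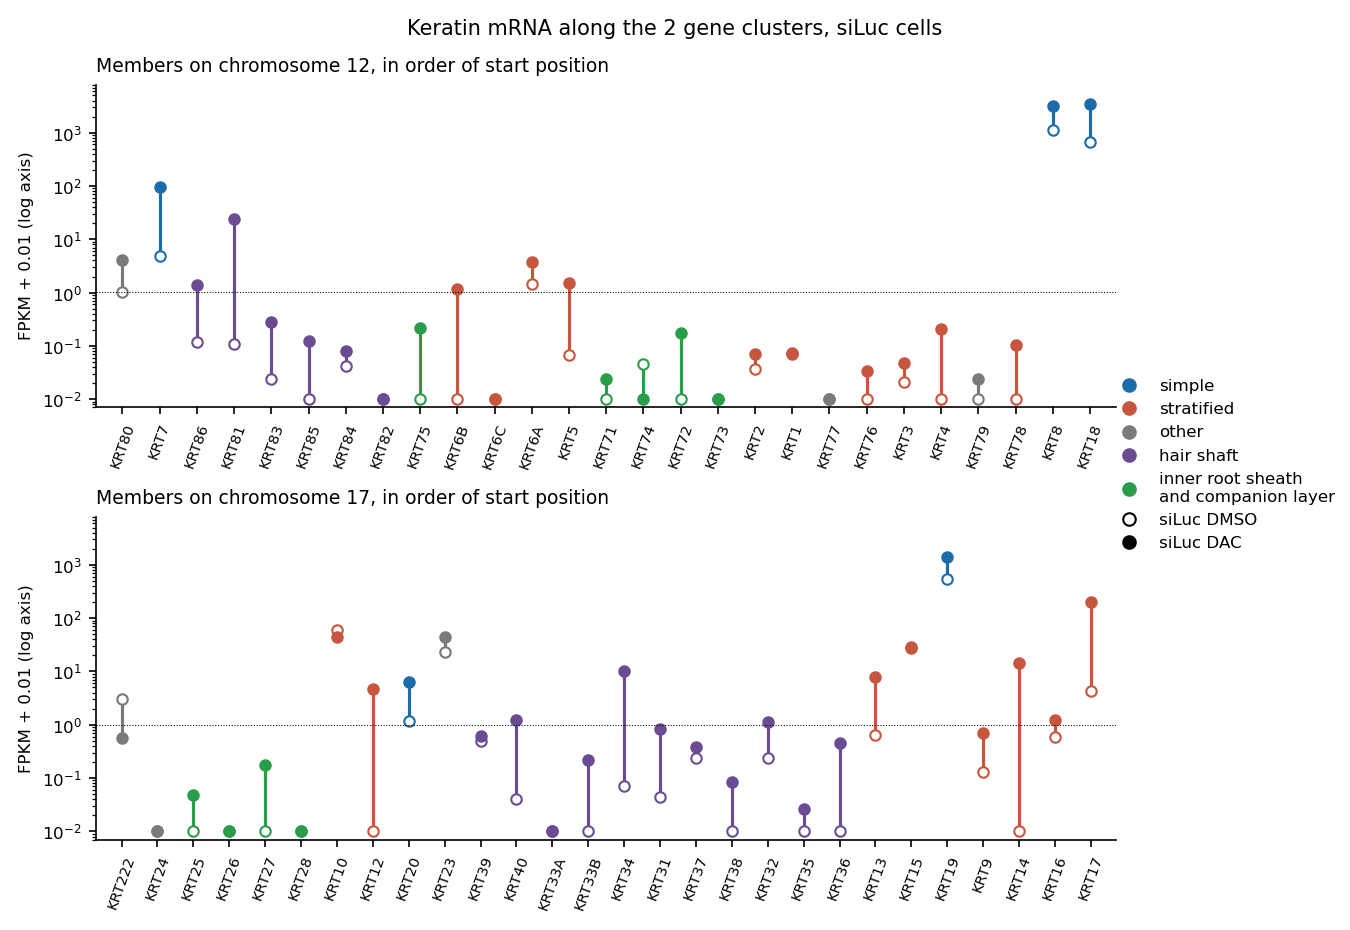
FPKM plus 0.01 on a log axis in siLuc DMSO (open) and siLuc DAC (filled) for all 55 keratins in order of start position on chromosomes 12 and 17. KRT8, KRT18 and KRT19 stand at the top, and the members from KRT71 to KRT78 lie below the dotted line at 1 FPKM.

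Genes that work with keratins were read from 4 lists, chosen with earlier results known. Of 19 desmosome and linker genes, which anchor keratin filaments at cell junctions, the authors' deposited table called JUP, PLEC and EPPK1 higher and DSC2 lower with DAC in siLuc, and DSC2 and DSC3 lower in siStau1. PLEC, a linker of filaments to junctions, went from 17.4 to 116 FPKM in siLuc, and DSC2, a desmosomal cadherin, from 14.2 to 5.88 FPKM. These ratios were smaller after GC centring, with log2 values in siLuc going from 1.09 to 0.02 for JUP, from 1.83 to 0.63 for EPPK1, from 2.74 to 1.54 for PLEC and from −1.26 to −0.63 for DSC2. There were 14 tested members in each arm. Of 16 other intermediate filament genes, 5 were called higher and 1 lower with DAC in siLuc, of 13 tested, and 4 higher and 0 lower in siStau1, of 12 tested. At an unadjusted Cuffdiff p-value under 0.05, 5 were higher and 2 lower in each arm. Beside these and the next lists stand the 8.71% higher and 4.78% lower of all tested genes in siLuc, and 4.56% and 2.89% in siStau1. VIM, the filament of mesenchymal cells, had 1.08, 44.4, 1.21 and 31.4 FPKM and rose in both arms. DES, the filament of muscle, had 2.23, 14.9, 1.14 and 12.3 FPKM and also rose in both. After GC centring the log2 ratio in siLuc was 5.22 for VIM and 1.62 for DES, against 5.24 and 2.69 before. For the others called higher there, it went from 1.34 to 0.27 for LMNA, from 1.38 to 0.59 for NES and from 3.79 to 3.62 for INA. For BFSP1, called lower, it went from −1.74 to −2.30.

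Of 22 measured keratinocyte differentiation genes, 12 were tested, and 5 were called higher in each arm in the authors' deposited Cuffdiff table and 0 lower. At an unadjusted p-value under 0.05 there were 6 and 0 in each arm, beside 17.6% and 10.4% of all tested genes higher. SFN, an epithelial 14-3-3 protein, had 77.8, 237, 47.8 and 166 FPKM and rose in both arms. Its log2 ratio went from 1.60 to 0.53 in siLuc after GC centring, and was 1.03 with it in siStau1. TP63, the regulator of basal epithelial cells, had 0.00546, 0.865, 0.0377 and 0.704 FPKM and was not called. The cornified envelope genes IVL and FLG stayed at or below 0.0268 FPKM, and LOR was listed at 0 in all groups. Others of this list were higher with DAC. TGM1 had 0.156, 7.93, 0.403 and 2.38 FPKM and KLK5 0.723, 8.50, 0.958 and 11.6 FPKM, without a call. S100A7, with 0, 1.40, 0 and 2.35 FPKM, was called in both arms. Of the 22, 18 had a higher FPKM with DAC in siLuc and 1 a lower one, and in siStau1 17 and 2. Of 8 hair follicle regulators, 2 were tested for DAC in each arm, and for the knockdown 2 with DMSO and 1 with DAC. Cuffdiff called 0 in any comparison, 0 also at an unadjusted p-value under 0.05, which says little with so few tested. With DAC, 6 of the 8 had a higher FPKM in siLuc and 2 a lower one, and in siStau1 5 and 1. FOXN1 was at or below 0.0173 FPKM throughout. In the knockdown comparisons no gene of these 4 lists was called, and 2 had an unadjusted Cuffdiff p-value under 0.05 with DMSO and 3 with DAC. The median log2 ratios with DAC in siLuc were 0.13 for the desmosome list, 1.36 for other filaments, 1.01 for keratinocyte differentiation and 0.72 for hair regulators, beside 1.09 for keratins, all with untested members, and 0.23 over tested genes only. For the 2 hair regulators at 1 FPKM or more, MSX2 and HOXC13, the median was −0.53, and −0.92 after GC centring.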

How the data were processed

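Total RNA of 4 groups of 2 libraries each was used, 8 libraries in all. Per the submitters' processing notes, which give no roles, the tools were HISAT2 2.1.0 and Cuffdiff 2.2.1 on hg38. The authors deposited 1 FPKM value per group and Cuffdiff p-values and q-values for 6 comparisons, per the file headers, of which 4 were used. The deposited q-values are Benjamini-Hochberg values over all 102180 tests, with a smallest p-value of 5e-05. Each group's FPKM was the same in its 3 comparisons for all genes but 1, which is no keratin. Strand and multi-read settings are not given in the sources used here, and depth is unknown. Whether the 2 libraries came from separate cultures is not given, so the authors' p-values may measure technical spread only.

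The tests of counts, the replicate block and the fits without single replicates that were planned could not be run on group values. Calls are those of the deposited table, with a q-value limit of 0.05. Log2 ratios had 0.1 FPKM added. GC centring used 20 bins of protein-coding genes expressed at 1 FPKM or above in each group of a comparison and was checked on simulated data. Gene positions, transcript GC content and shared 50-base stretches came from GENCODE release 29 (GRCh38), which holds every gene identifier of the table, and promoters from RefSeq. Named genes were the keratins with at least 1 FPKM in some group or called in some comparison, and of the other lists any called gene. TP63, IVL, FLG, LOR, TGM1, KLK5, FOXN1, MSX2, HOXC13 and the named markers were chosen after their values were seen. The members and lists were chosen with earlier results of these data known. Tables of RNA bound by the J2 antibody list repeat elements without genes and were not used. Scripts ran in Python 3.11.15 with pandas 2.3.3, numpy 2.4.6 and scipy 1.17.1.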

Additional observations from a re-analysis of the deposited data

How the results depend on the processing

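No paired analysis was possible because the table gives 1 value per group and none per library. For the same reason leaving out replicates, a replicate block, edgeR and DESeq2 were not run. The number of keratins called with DAC stayed within 1.5 times under each alternative tried, from 8 to 11 in siLuc and from 9 to 12 in siStau1. With a q-value limit of 0.01 the knockdown calls went from 1 to 0 with DMSO and from 4 to 2 with DAC. Adjusted within each comparison only, they went to 0 in both, while 4 and 5 keratins had an unadjusted Cuffdiff p-value under 0.05. The number of keratins past 2-fold was 19 and 17 with DAC and 5 with knockdown in DMSO. Without the filter on low values it was 29, 27 and 8, because members under 1 FPKM then enter, and with a pseudocount of 1 it was 2 for knockdown in DMSO. For knockdown under DAC it was 6, and from 5 to 7 under the alternatives. With a limit of 5 FPKM in place of 1, the number of expressed keratins went from 12 to 6 in siLuc DMSO and from 22 to 13 in siLuc DAC. Scaling to the upper quartile of protein-coding genes gave 11, 22, 9 and 20 in the 4 groups. Of 96 log2 ratios of named keratins, GC centring changed the sign of 8, none of them called, including KRT19 with knockdown under DAC, from −0.45 to 0.14. The 8 count KRT6B with knockdown in DMSO, at 0 FPKM in both groups, whose ratio went from 0 to 0.27. The pseudocount changed no sign, but it sets the size of ratios that start near 0.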
